A study of Mus musculus with 6 samples.

Results

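The Zfp genes of the mouse are named for their zinc fingers, small folds of the protein chain held by a zinc ion. A group of 253 of them was followed on the polysomes of leukaemia cells treated with 4EGI-1. Members were chosen by symbol and by signal. Their symbol is Zfp with a number and at most 1 further letter, and their mean log2 signal over the 6 arrays was at or above 6.404, the median of all probe sets in the table. Of 19937 genes tested, 341 had such a symbol and a probe set of their own, and the 88 dimmer ones were kept out. Each gene was represented by its brightest probe set.

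The cells were clone #483 of a C57BL6 mouse T-ALL, a leukaemia of immature T cells, so all samples stem from 1 clone. The 3 treated samples received 100 µM 4EGI-1 for 2 h. This small molecule keeps eIF4E, which holds the mRNA cap, from joining the scaffold eIF4G, a step that brings ribosomes to capped mRNAs. The 3 samples they were set against are titled untreated, while the protocol and the study's title set 4EGI-1 against DMSO, the solvent, so it is not settled whether they received it. No allele or other agent is named for either group. RNA of the polysome fractions of a sucrose gradient was pooled and hybridised to 1 array per sample, so a value is the log2 signal of an mRNA among polysomal mRNAs. Total RNA is not analysed here, so a change in the amount of an mRNA and a change in its share on ribosomes cannot be told apart, nor can fewer cells and less RNA per cell.

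Most proteins named Zfp carry fingers of the C2H2 type, often in long rows that read DNA sequence. In many of them the fingers follow a KRAB box, which recruits the co-repressor Trim28 and through it histone and DNA methylation, and many of these genes lie in clusters of related copies that silence transposable elements. Other Zfp proteins bind RNA, join chromatin complexes or mark ribosomes and other proteins with ubiquitin.

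The arrays correlated at 0.996 to 0.997 within groups and at 0.988 to 0.990 between groups across the genes tested, and 3 arrays a group limit the precision. Of 12 markers of T cells, 11 had a probe set of their own and all 11 were at or above the signal cut. Their mean per array was 10.19 to 10.26 with 4EGI-1 and 10.36 to 10.39 in untreated cells, and 4 of the 11 fell while 1 rose. Markers of B cells averaged 5.903 to 6.001 with 4EGI-1 and 5.79 to 5.81 in untreated cells, with 2 of 5 at or above the cut, and Blnk rose by 0.99 ± 0.11 while the other 4 did not pass (median of the 5, -0.07). Myeloid markers averaged 5.99 to 6.01 with 4EGI-1 and 5.87 to 5.96 in untreated cells, with 2 of 8 at or above the cut. Adgre1 rose by 0.64 ± 0.08 and Cd68 by 0.31 ± 0.07, while the other 6 did not pass (median of the 8, -0.01). Adgre1 was at 4.85 to 4.98 in untreated cells, below 5.21, the 25th percentile of all probe sets, and whether that exceeds background was not tested. Erythroid markers averaged 6.58 to 6.76 with 4EGI-1 and 6.59 to 6.80 in untreated cells (2 of 3 at or above), and stromal, endothelial and epithelial markers 6.59 to 6.67 with 4EGI-1 and 6.68 to 6.74 in untreated cells (5 of 9). The part of these levels in the results below was not tested.

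Sequence before the start of transcription is shown first, because a motif found there was present in 25 of the 102 members with a listed promoter that rose, or 24.5%. It was present in 11.1% of the 99 that did not pass, in 0 of the 9 that fell and in 2.29% of the other genes at or above the signal cut. The motif was picked because it was found in the most members' promoters, so an excess in members follows from that choice. Of the members that hold it, 12 lie in 1 cluster of neighbouring Zfp genes, and 10 of these 12 rose. Outside that cluster 15 of 24 rose. The 100 bases before the annotated start are given for 10 of the 36 members that hold the motif ACTACANTTCCC, from RefSeq, assembly GRCm38.p6, 5′ to 3′ on the strand of the gene. The capitals mark the motif, which reads GGGAANTGTAGT where it lies on the opposite strand.
Zfp759, chr13:67128128-67128227 (+ strand): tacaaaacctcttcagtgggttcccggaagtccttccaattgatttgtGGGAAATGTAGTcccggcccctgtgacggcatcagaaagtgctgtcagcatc
Zfp595, chr13:67332561-67332660 (- strand): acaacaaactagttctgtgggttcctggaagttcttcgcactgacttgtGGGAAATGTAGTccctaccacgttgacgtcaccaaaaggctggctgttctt
Zfp457, chr13:67306413-67306512 (- strand): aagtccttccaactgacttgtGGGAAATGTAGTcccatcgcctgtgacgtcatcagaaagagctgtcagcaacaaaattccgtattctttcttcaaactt
Zfp953, chr13:67360573-67360672 (- strand): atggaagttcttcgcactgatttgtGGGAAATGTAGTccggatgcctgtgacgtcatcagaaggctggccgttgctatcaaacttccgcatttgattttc
Zfp874a, chr13:67451625-67451724 (- strand): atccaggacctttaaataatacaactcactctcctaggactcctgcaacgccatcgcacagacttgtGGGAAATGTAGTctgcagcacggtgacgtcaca
Zfp605, chr5:110109992-110110091 (+ strand): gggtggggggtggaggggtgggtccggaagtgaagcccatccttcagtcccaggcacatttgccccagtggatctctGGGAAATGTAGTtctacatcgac
Zfp84, chr7:29768452-29768551 (+ strand): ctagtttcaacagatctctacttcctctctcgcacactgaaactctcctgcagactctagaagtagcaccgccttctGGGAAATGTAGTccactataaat
Zfp189, chr4:49521076-49521175 (+ strand): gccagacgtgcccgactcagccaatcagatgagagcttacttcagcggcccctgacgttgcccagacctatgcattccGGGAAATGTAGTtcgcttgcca
Zfp566, chr7:30090511-30090610 (- strand): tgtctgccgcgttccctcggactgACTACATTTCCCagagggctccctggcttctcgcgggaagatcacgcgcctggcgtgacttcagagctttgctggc
Zfp879, chr11:50841553-50841652 (- strand): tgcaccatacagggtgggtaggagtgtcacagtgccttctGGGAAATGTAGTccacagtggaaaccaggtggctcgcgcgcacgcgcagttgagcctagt
The first 5 are neighbours in 1 cluster of Zfp genes and rose, the next 3 lie elsewhere and rose, and the last 2 hold the motif and did not pass the test. The 10 are examples chosen with the values known, and 25 of the 36 members with the motif rose. Zfp738 and Zfp273 of the same cluster also hold it, are not printed and did not pass.

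Zfp mRNAs were more abundant among the polysomal mRNAs of treated cells. Of the 253 members, 119 rose, 10 fell and 124 did not pass the test (limma, adjusted p under 0.05 over all genes). The members that rose are 47.0% of the 253, against 11.5% of all genes tested, 17.3% of the 11059 genes at or above the same signal cut and 16.6% of these without the members. The members that fell are 3.95%, against 11.5% of all genes, 18.9% of those at or above the cut and 19.2% of these without the members. The median log2 difference (4EGI-1 minus untreated) of the members was 0.22, against -0.03 over all genes tested and -0.04 over the other 10806 genes at or above the cut. In 195 of the 253 the difference was above 0.

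The median log2 signal over the members was 8.25, 8.14 and 8.19 in the treated arrays, against 7.83, 7.84 and 7.80 in the untreated arrays. The treated arrays were all higher, while the median over all probe sets of the table was 6.38 to 6.43 with 4EGI-1 and 6.40 to 6.43 in untreated cells. All 3 treated values lay above all 3 untreated values in 142 members, or below them in 19. Over all genes tested, 17% were separated upwards and 20.8% downwards. Over the genes at or above the cut these shares were 24.2% and 31.1%, and without the members 23.4% and 31.7%.

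**Figure D1:**
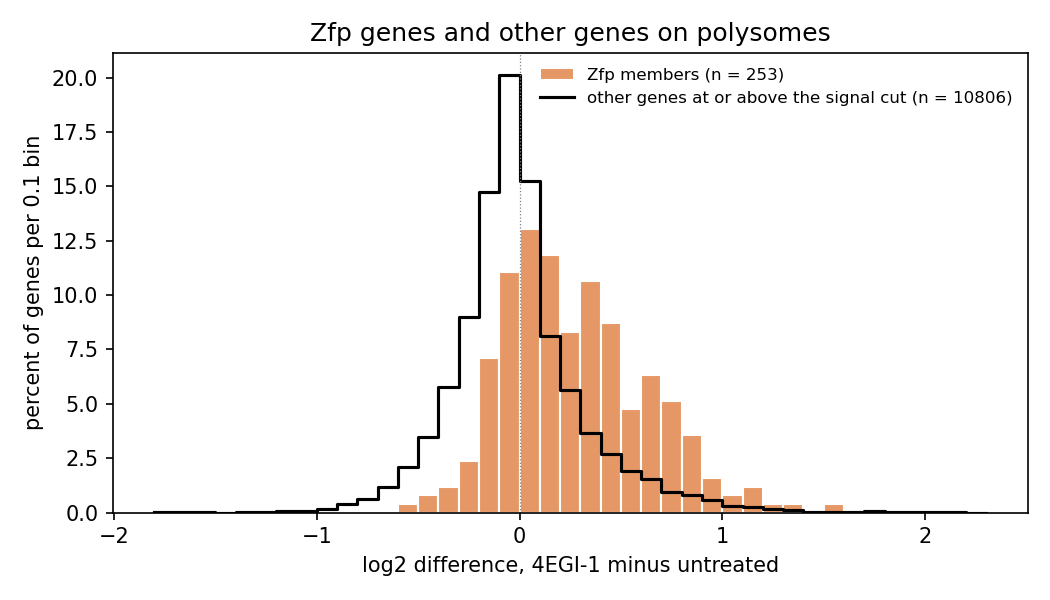
Log2 difference (4EGI-1 minus untreated, x axis) of the 253 members (bars) and of the other 10806 genes at or above the same signal cut (black line), as percent of genes per 0.1 bin (y axis). The bars are shifted to the right of the line, with medians of 0.22 for the members and -0.04 for the other genes.

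Most increases were moderate. The median fold of the 119 members that rose was 1.43. At 1.5-fold or more were 51 of the 253 members, and at 2-fold or more 8 of the 253. Of all genes tested, 0.767% rose by 2-fold or more. The share of all genes at 1.5-fold or more is not given here, so the count of 51 is a description without a background. None of the 10 members that fell did so by 1.5-fold (0 of 10), and their median log2 difference was -0.35. The count of members that fell was also less stable: it was 6 without 4EGI-1 replicate 2, 5 without untreated replicate 1 and 6 without untreated replicate 2.

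Increases were found among bright and dim members. The 75th percentile of all probe sets was 8.25. Among the 109 members at or above it, 63 rose (57.8%) and 4 fell (3.67%), with a median difference of 0.32. Among the 144 dimmer members 56 rose (38.9%) and 6 fell (4.17%), with a median of 0.17. Of all genes at or above the signal cut 17.3% rose and 18.9% fell. Shares of all genes within each of these signal ranges are not given here. Whether the contrast between bright and dim is particular to the members was not tested. Across the 253 members the rank correlation of the mean signal with the difference was 0.14, a description over genes that share the same 6 arrays.

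**Figure D2:**
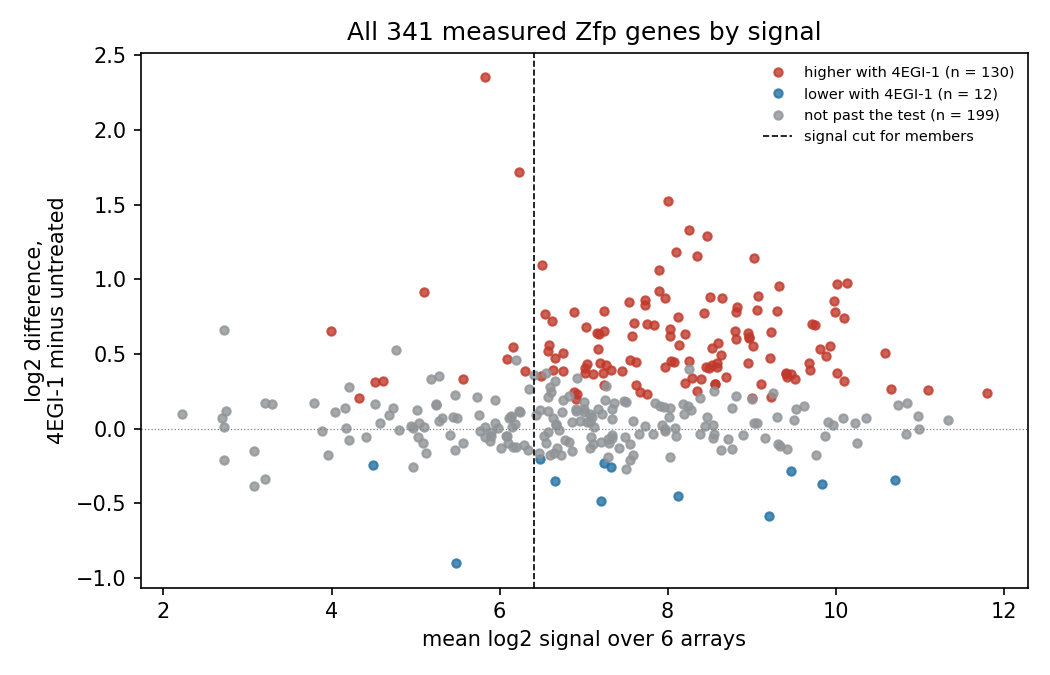
Mean log2 signal over the 6 arrays (x axis) against the log2 difference, 4EGI-1 minus untreated (y axis), for all 341 measured Zfp genes, with the signal cut for members as a dashed line. Increases (red) lie at all signal levels right of the cut, and the top point, left of the cut, is Zfp811 at 2.35.

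The signal cut uses the mean of both groups, so it can let in a gene through the group where it is bright. In 242 members both group means were at or above the cut. In 9 members the untreated mean was below it, and 6 of these rose (Zfp455, Zfp959, Zfp715, Zfp82, Zfp945 and Zfp30). In 2 the treated mean was below it, and 1 of these, Zfp423, fell. Just inside the cut stood Zfp184, Zfp560 and Zfp879, with mean signals of 6.41, 6.44 and 6.47 and differences of 0.36, 0.09 and -0.16. Just outside it stood Zfp867, Zfp618 and Zfp551, with mean signals of 6.35, 6.34 and 6.30 and differences of 0.26, -0.14 and 0.38.

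Of the 88 Zfp genes below the cut, 11 rose (12.5%) and 2 fell (2.27%), with a median difference of 0.06. Of all genes tested 11.5% rose and 11.5% fell, so the share of dim Zfp genes that rose was near the background. Zfp811 had log2 signals of 7.08, 6.96 and 6.98 with 4EGI-1, against 4.80, 4.70 and 4.47 in untreated cells. It stood below 5.21, the 25th percentile of all probe sets, in untreated cells and above the cut with the compound, a difference of 2.35 ± 0.09 (SE; limma adjusted p = 2.78e-05). Zfp389 had 7.09, 7.16 and 7.02 with 4EGI-1, against 5.23, 5.54 and 5.35 in untreated cells, and its groups were likewise far apart (1.72 ± 0.09). In 12 of the 13 dim genes that passed the groups were separate, 10 higher and 2 lower. The next largest were Zfp119b at 0.91 ± 0.20, Zfp931 at -0.90 ± 0.16 and Zfp946 at 0.66 ± 0.12. The untreated signals of Zfp811 and Zfp119b, and the signals of Zfp946 in both groups, lay below the 25th percentile. So did 4EGI-1 replicate 3 of Zfp119b (5.08) and the treated mean of Zfp931 (5.03). Whether these signals exceed background was not tested.

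The 10 largest increases among members ran from 0.97 to 1.52 on the log2 scale. Zfp759 had log2 signals of 8.79, 8.60 and 8.92 with 4EGI-1, against 7.27, 7.40 and 7.05 in untreated cells. Every treated array was more than 1 log2 unit above every untreated array, a 2.88-fold difference (1.52 ± 0.11, SE; limma adjusted p = 8.91e-05). Zfp595 had 9.02, 8.88 and 8.87 with 4EGI-1, against 7.57, 7.62 and 7.59 in untreated cells, and its untreated arrays were nearly alike; it overlaps its neighbour Zfp953. Its difference was 1.33 ± 0.07 (adjusted p = 2.96e-05). Zfp457 had 9.38, 9.01 and 8.95 with 4EGI-1, against 7.69, 7.83 and 7.95 in untreated cells, with 4EGI-1 replicate 1 the brightest array (1.29 ± 0.12, adjusted p = 0.000229).

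Zfp605 had log2 signals of 8.82, 8.67 and 8.57 with 4EGI-1, against 7.53, 7.46 and 7.51 in untreated cells. The groups were clearly apart, with a difference of 1.18 ± 0.08 (adjusted p = 6.88e-05). Zfp110 encodes a KRAB protein known as NRIF, which interacts with the neurotrophin receptor. Its signals were 9.10, 8.80 and 8.89 with 4EGI-1, against 7.68, 7.76 and 7.88 in untreated cells, and it rose by 1.16 ± 0.09. Zfp799 had 9.66, 9.51 and 9.62 with 4EGI-1, against 8.32, 8.49 and 8.54 in untreated cells and rose by 1.15 ± 0.08.

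Zfp455 was the dimmest of the 10. It had 7.12, 7.02 and 7.03 with 4EGI-1, against 5.92, 5.76 and 6.21 in untreated cells, below the signal cut in all untreated arrays and above it in all treated arrays, so it entered through the group where it was bright (1.09 ± 0.11). Zfp708, known in the mouse for directing DNA methylation to a class of retrotransposons, had 8.54, 8.18 and 8.56 with 4EGI-1, against 7.46, 7.06 and 7.58 in untreated cells. It rose by 1.06 ± 0.15 (adjusted p = 0.00153), the widest SE of the 10, and it overlaps another gene of the cluster, Rslcan18, so its signal cannot be assigned to it with certainty. Zfp729b and Zfp39 were the brightest of the 10. Zfp729b had 10.73, 10.55 and 10.61 with 4EGI-1, against 9.57, 9.68 and 9.70 in untreated cells, and Zfp39 had 10.55, 10.44 and 10.51 with 4EGI-1, against 9.50, 9.50 and 9.59 in untreated cells. They rose by 0.98 ± 0.07 and 0.97 ± 0.06, with no overlap between groups in either gene.

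**Figure D3:**
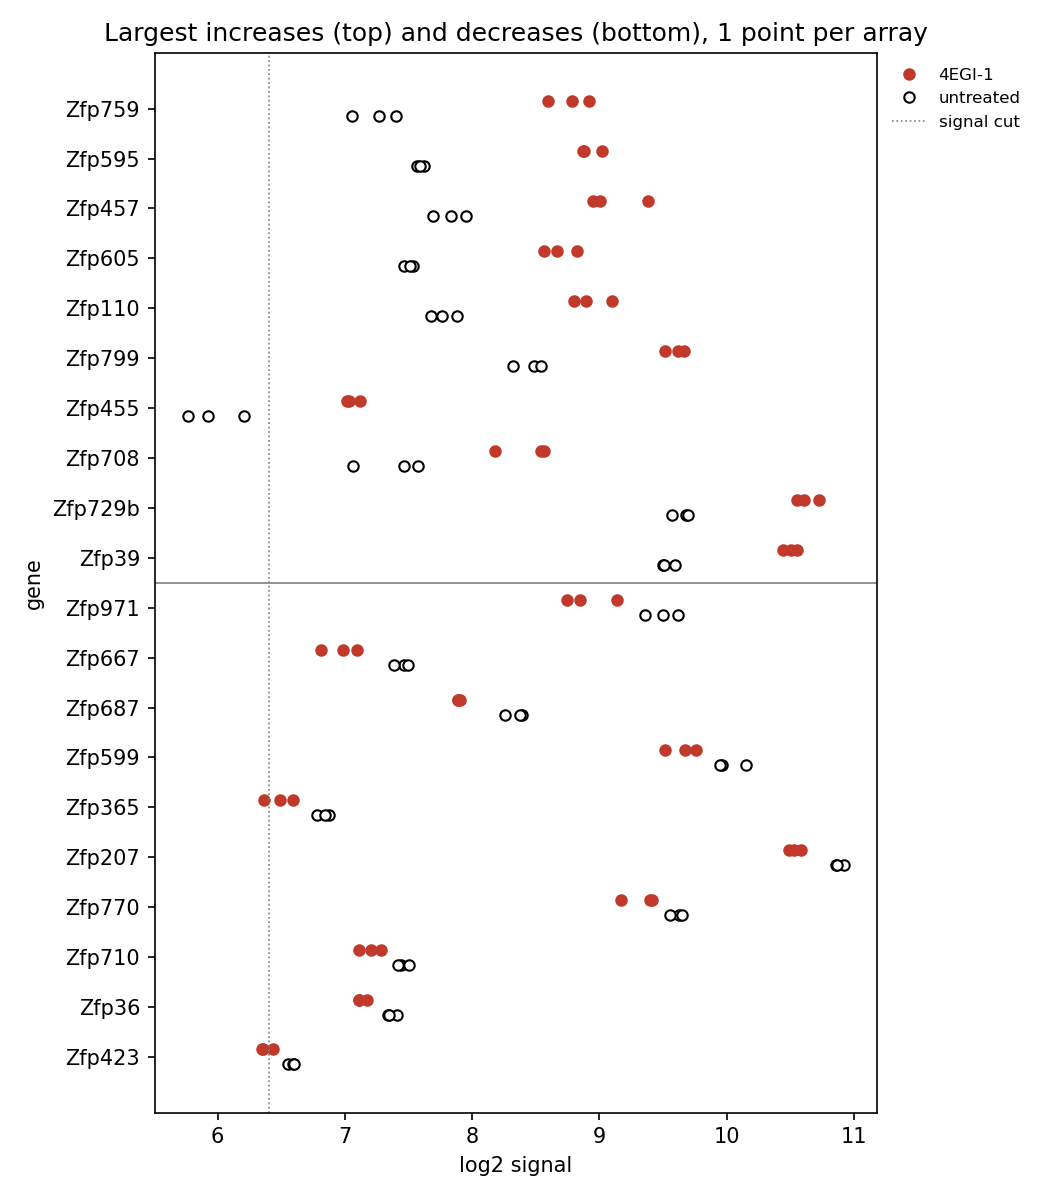
Log2 signal (x axis) of the 10 members with the largest increases (upper rows) and the 10 that fell (lower rows), 1 point per array, with 4EGI-1 filled and untreated open. The groups do not overlap in any of these 20 genes, and the gaps in the upper rows are wider than in the lower rows.

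The 10 members that fell did so by 0.20 ± 0.06 to 0.58 ± 0.11 on the log2 scale. Zfp971 had log2 signals of 9.14, 8.85 and 8.74 with 4EGI-1, against 9.62, 9.50 and 9.36 in untreated cells (-0.58 ± 0.11, SE; limma adjusted p = 0.00695). Zfp667 had 7.10, 6.98 and 6.81 with 4EGI-1, against 7.47, 7.50 and 7.38 in untreated cells (-0.49 ± 0.08). In both genes the treated arrays spread more than the untreated ones, and the groups stayed apart. Zfp687, which in human cells forms a complex with ZNF592 and ZMYND8 at chromatin, had 7.89, 7.89 and 7.90 with 4EGI-1, against 8.26, 8.39 and 8.37 in untreated cells. It overlaps Pi4kb, its treated arrays were nearly identical and it fell by 0.45 ± 0.06 (adjusted p = 0.00138). Zfp365 fell by 0.35 ± 0.07, with a treated mean close to the signal cut.

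At the threshold of 0.05, 5 of the 10 decreases lost the call under some alternative fits. Under the stricter adjusted p of 0.01 only 4 of the 10 passed, and Zfp365, at 0.0104, was not among them. Zfp599 fell by 0.37 ± 0.09, and its adjusted p was 0.0533 without 4EGI-1 replicate 2 and 0.0609 without untreated replicate 1; it overlaps its neighbour Zfp809. Zfp770 fell by 0.28 ± 0.08 and lost its call without 4EGI-1 replicate 2 (adjusted p = 0.0826) or without untreated replicate 1 (0.0985), 2 (0.104) or 3 (0.0618). Zfp710 fell by 0.26 ± 0.07 and lost it without 4EGI-1 replicate 1 (0.0653) or 3 (0.0939), or untreated replicate 1 (0.067), 2 (0.0928) or 3 (0.0598). Zfp423, a partner of the transcription factor EBF, fell by 0.20 ± 0.06, and its call ended when any of the 6 arrays was left out (adjusted p of 0.0535, 0.102 and 0.118 without 4EGI-1 replicates 1, 2 and 3, and 0.071, 0.104 and 0.12 without untreated replicates 1, 2 and 3). It also ended with arrays centred on their median (0.0687) and with a trended robust prior (0.0689). The treated mean of Zfp423, 6.38, lay below the signal cut, so it became a member only through the untreated arrays, where it was brighter.

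Of 12 members with roles in RNA, ribosomes or protein tagging 4 rose (33.3%), 2 fell (16.7%) and 6 did not pass, with a median difference of 0.02. Of all genes at or above the cut 17.3% rose and 18.9% fell, so the share that fell was near the background. Zfp638, a nuclear protein that binds nucleic acids, had log2 signals of 10.45, 10.42 and 10.35 with 4EGI-1, against 9.54, 9.64 and 9.48 in untreated cells. Its groups were well apart, and it rose by 0.85 ± 0.07 (adjusted p = 0.000118). Zfp622, whose yeast counterpart Rei1 matures the large ribosomal subunit, had 9.22, 9.25 and 9.43 with 4EGI-1, against 8.88, 8.72 and 8.63 in untreated cells. It rose by 0.55 ± 0.09 (adjusted p = 0.00272). Zfp346, which binds double-stranded RNA, had 10.02, 10.10 and 10.10 with 4EGI-1, against 9.56, 9.57 and 9.49 in untreated cells, a rise of 0.53 ± 0.06.

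Zfp830, a splicing protein, rose by 0.21 ± 0.06 (adjusted p = 0.0399) and lost the call when any array but untreated replicate 1 was left out (adjusted p of 0.0965, 0.0831 and 0.0967 without 4EGI-1 replicates 1, 2 and 3, and 0.0926 and 0.138 without untreated replicates 2 and 3), and with arrays centred on their median (0.0529). Zfp207 encodes BuGZ, which loads the checkpoint protein Bub3 on kinetochores. It had 10.59, 10.53 and 10.49 with 4EGI-1, against 10.92, 10.86 and 10.87 in untreated cells, and it fell by 0.35 ± 0.06 (adjusted p = 0.00417). Zfp36 encodes tristetraprolin, which binds AU-rich elements and speeds the decay of mRNAs. It had 7.18, 7.11 and 7.11 with 4EGI-1, against 7.34, 7.41 and 7.34 in untreated cells, with separate groups, and fell by 0.23 ± 0.06. Its call was lost without 4EGI-1 replicate 2 (adjusted p = 0.0695) or 3 (0.0791) and without untreated replicate 1 (0.0506), 2 (0.0841) or 3 (0.0638).

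The 6 others of this list did not pass. Zfp598 encodes the ubiquitin ligase that recognises collided ribosomes. Its log2 signals were 7.97, 7.88 and 7.97 with 4EGI-1, against 7.93, 7.93 and 7.89 in untreated cells, with overlapping groups and a difference of 0.02 ± 0.06 (adjusted p = 0.827). Zfp593, whose yeast counterpart Bud20 takes part in making the large ribosomal subunit, differed by -0.15 ± 0.09 (adjusted p = 0.333). Differences were -0.10 ± 0.06 for the RNA-binding Zfp106, 0.06 ± 0.06 for Zfp326, a subunit of a complex that couples elongation to splicing, -0.19 ± 0.08 for Zfp385a and 0.02 ± 0.09 for Zfp277.

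Among 25 members listed as sequence-specific or chromatin regulators without a KRAB box, 8 rose (32.0%), 2 fell (8.0%) and 15 did not pass, with a median difference of 0.07. Of those that fell, Zfp423 reached the signal cut only through the untreated arrays. Zfp518a had log2 signals of 10.40, 10.25 and 10.51 with 4EGI-1, against 9.55, 9.56 and 9.69 in untreated cells, and rose by 0.78 ± 0.08 (adjusted p = 0.000385). Zfp592, the partner of Zfp687, had 8.88, 8.83 and 8.94 with 4EGI-1, against 8.37, 8.39 and 8.41 in untreated cells. It rose by 0.49 ± 0.06 (adjusted p = 0.00073), so these partners moved in opposite directions. Zfp644, a partner of histone methyltransferases, rose by 0.32 ± 0.07 and Zfp292 by 0.35 ± 0.06.

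Only 4 members were on the list of KRAB proteins known for silencing repeats or keeping imprints, and 2 of them rose. Besides Zfp708, Zfp445, which protects imprinted methylation, had 9.96, 9.85 and 9.89 with 4EGI-1, against 9.50, 9.49 and 9.39 in untreated cells. Its groups were apart and it rose by 0.44 ± 0.07 (adjusted p = 0.00189). Zfp809, which silences murine leukaemia virus, had 10.29, 10.23 and 10.24 with 4EGI-1, against 10.25, 10.20 and 10.19 in untreated cells, with overlapping groups and a difference of 0.04 ± 0.06 (adjusted p = 0.716). Zfp568, the repressor of a placental Igf2 transcript, differed by 0.18 ± 0.08 (adjusted p = 0.146), and passed without 4EGI-1 replicate 2 (0.0431).

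Many members lie side by side in the genome. In the gene order of GRCm38.p6, runs were defined as 4 or more Zfp genes with at most 2 other protein-coding genes between neighbours. Of the 96 members in such runs, 52 rose and 3 fell, with a median difference of 0.35. Among the 52, Zfp455, Zfp82 and Zfp30 reached the signal cut only through the treated arrays. Of the 157 members outside runs, 67 rose and 7 fell, with a median of 0.13. The members of a run often descend from each other, and how far probes of related copies share signal was not tested.

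The largest run, from Zfp712 to Zfp273, holds 23 Zfp genes, of which 16 are members, and 14 of these rose while 0 fell. Their differences ran from 0.20 to 1.52 with a median of 0.78, and 6 of the 10 largest increases (Zfp759, Zfp595, Zfp457, Zfp455, Zfp708 and Zfp729b) belong to it. Zfp455 reached the signal cut only through the treated arrays, and without it 13 of 15 members of the run rose and 5 of the other 9 largest increases belong to it. Zfp458 rose by 0.82 ± 0.08, Zfp748 by 0.88 ± 0.08 and Zfp729a by 0.74 ± 0.08. The members that did not pass, Zfp738 and Zfp273, differed by 0.40 ± 0.13 and 0.20 ± 0.15. Zfp273 had 9.23, 9.04 and 9.04 with 4EGI-1, against 9.28, 8.61 and 8.82 in untreated cells, with untreated replicate 1 as the brightest array. Without this run, 105 of 237 members rose and 10 fell, with a median of 0.19.

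The other runs with 5 or more members had lower medians. From Zfp607b to Zfp850, 6 of 7 members rose (median 0.65), and Zfp850 had 8.17, 8.16 and 8.10 with 4EGI-1, against 7.25, 7.27 and 7.42 in untreated cells. From Zfp84 to Zfp146, 7 of 13 rose (median 0.32), with Zfp84 at 0.96 ± 0.09 as the largest difference. Among these 7, Zfp82 and Zfp30 reached the signal cut only through the treated arrays, with untreated means of 6.31 and 6.32. From Zfp871 to Zfp563, 5 of 7 rose (median 0.46), from Zfp677 to Zfp946 5 of 8 (median 0.35) and from Zfp180 to Zfp94 5 of 7 (median 0.30). In the run from Zfp579 to Zfp580 0 of 5 passed (median 0.04), and in that from Zfp768 to Zfp689 0 of 5 (median 0.01). Of the 9 runs with 5 or more members, none held a member that fell (0 in each). The 3 members of runs that fell, Zfp971, Zfp667 and Zfp599, lie in smaller ones.

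**Figure D4:**
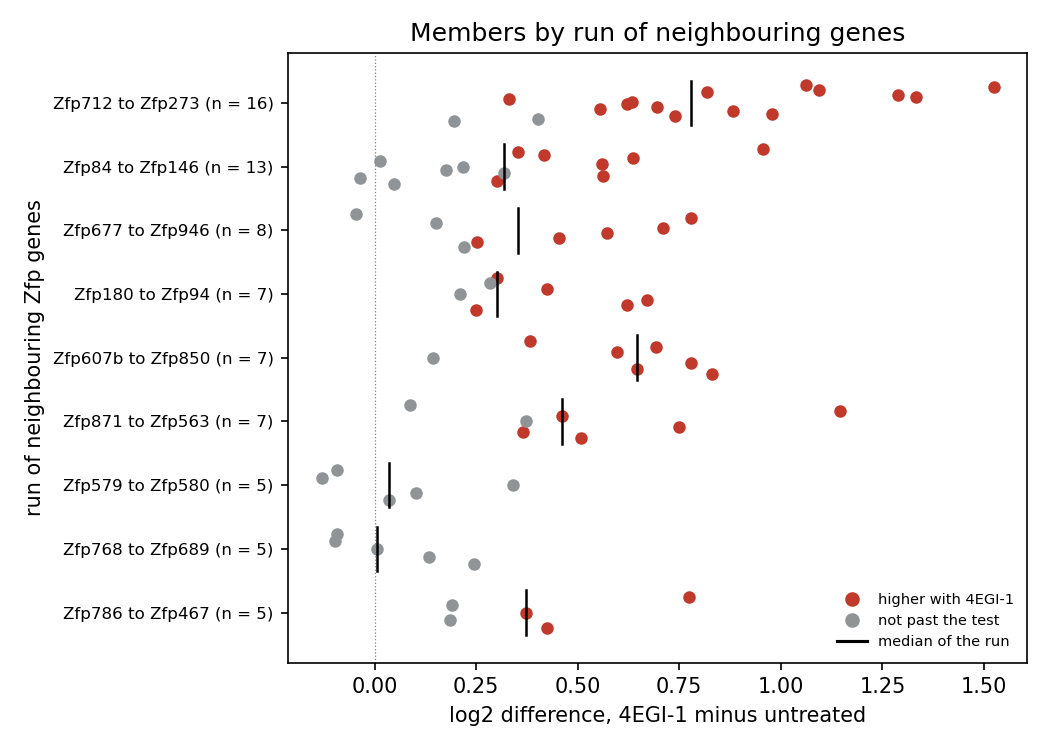
Log2 difference, 4EGI-1 minus untreated (x axis), of the members in the 9 runs of neighbouring Zfp genes with 5 or more members (rows), 1 point per gene in gene order, with the median of each run as a black bar. The run from Zfp712 to Zfp273 reaches furthest right, and the runs from Zfp579 to Zfp580 and from Zfp768 to Zfp689 have medians of 0.04 and 0.01.

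Of the 253 members, 94 overlap another gene in the gene table, so that part of their signal may not be theirs. Of these 41 rose and 4 fell, and of the 159 that overlap none 78 rose and 6 fell, with medians of 0.17 and 0.25. For 11 members more than 1 probe set was available. In Zfp319, Zfp407, Zfp60 and Zfp672 all probe sets rose, and in Zfp60 the dimmer probe set rose more (1.49, against 0.69 by the brightest). In Zfp738 1 of 3 probe sets passed, and in Zfp825 the probe sets differed in sign (0.07 by the brightest and -0.31 by the other, neither past the test).

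The promoter table held 210 of the 253 members, with 250 bases before and 50 after each annotated start. The motif ACTACANTTCCC, on either strand, was present in 36 of the 210, or 17.1%, against 1.63% of all 15613 genes tested that are in the table and 2.29% of the other genes at or above the signal cut. Among all 12-base words with any base at position 7 it is the one found in the most members' promoters. It was looked for after the values had been seen, so these shares are a description. A motif of this kind is known in human cells as a binding site of the zinc finger protein ZNF143. Among members it was present in 24.5% of the 102 that rose, 11.1% of the 99 that did not pass and 0 of the 9 that fell.

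Members with the motif had a higher median difference. Of the 36, 25 rose and 0 fell, with a median difference of 0.58, and of the 174 without it 77 rose and 9 fell, with a median of 0.19. In the largest run 12 of 14 members in the table hold the motif, and 10 of these 12 rose. Zfp738 and Zfp273 hold it and did not pass, while Zfp455 and Zfp456 lack it and rose, so within this run it did not mark the members that rose. Outside that run 15 of 24 members with the motif rose and 0 fell, with a median of 0.42. Of 199 other genes at or above the cut with the motif 42 rose (21.1%) and 33 fell (16.6%), with a median of 0.00, against 16.6% and 19.2% of all the other genes at or above the cut.

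The windows of the cluster printed above share bases around the motif. The longer run TTGTGGGAANTGTAGTC, which contains the motif on the opposite strand, was present in 10 of the 14 members of the largest run and in 12 of all 210, against 18 of all 15613 genes. The bases added to the motif were those found most often around it in members' promoters, so an excess of the longer run in members follows from that choice. The 18 genes include these members, and the longer run was in 4 of the 8700 other genes at or above the cut. Zfp605 had the motif 23 bases before its start, as did Zfp84, and Zfp189 had it 22 bases before (first base of the motif as printed). Zfp84 had log2 signals of 9.77, 9.68 and 9.97 with 4EGI-1, against 8.89, 8.78 and 8.89 in untreated cells, and Zfp189 had 8.36, 8.32 and 8.41 with 4EGI-1, against 7.57, 7.48 and 7.27 in untreated cells, with separate groups in both. Zfp566 holds the motif too and had 7.65, 7.53 and 7.74 with 4EGI-1, against 7.93, 7.51 and 7.59 in untreated cells, with overlapping groups (-0.04 ± 0.11). Zfp879, also with the motif, was at -0.16 ± 0.08 (adjusted p = 0.19).

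**Figure D5:**
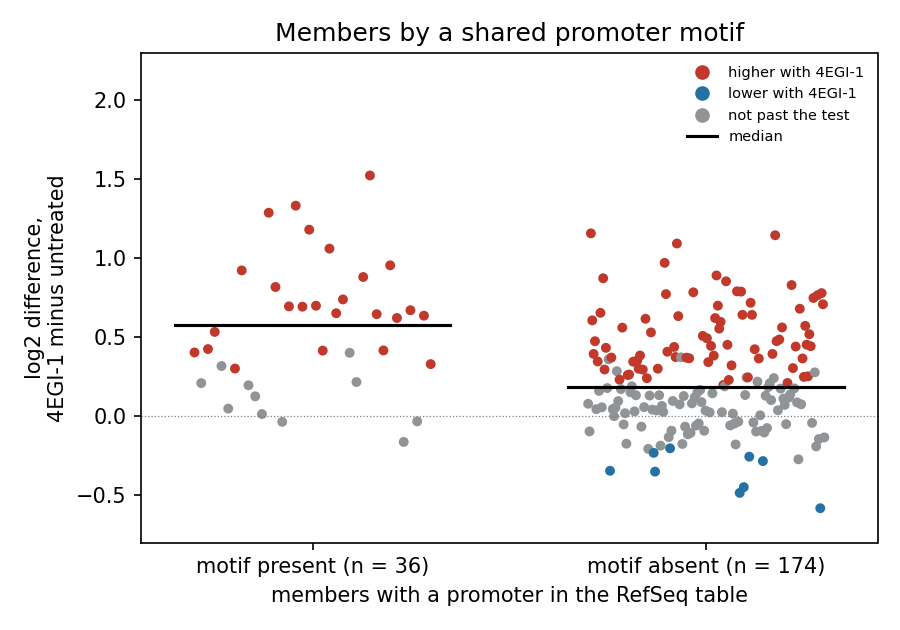
Log2 difference, 4EGI-1 minus untreated (y axis), of the 210 members in the promoter table, split by presence of the motif (x axis), 1 point per gene, with medians as black bars. The 36 members with the motif have a median of 0.58 and none that fell, and the 174 without it have a median of 0.19.

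The shares of 4 other motifs, searched on both strands, were closer to those of other genes. Since the motif above was picked as the one found in the most members' promoters, its larger excess follows from that choice. The contrast with the 4 is therefore only a description. CCGGAAG, the core of ETS factor sites, was in 23.8% of the members and 20.5% of the other genes at or above the cut. ATGGCGGC, a YY1 core, was in 7.62% of the members and 5.87% of the others. TGACGTCA, the cyclic AMP response element, was in 5.24% of the members and 3.53% of the others, and TATAAA in 8.57% of the members and 8.34% of the others. In the 14 members of the largest run with a promoter, these shares were 35.7% for CCGGAAG, 0.0% for ATGGCGGC, 28.6% for TGACGTCA and 14.3% for TATAAA. The 50 bases after the start had a median GC content of 60.0% in members, 58.0% in those that rose and 66.0% in the other genes at or above the cut. Across the 210 members the rank correlation of that GC content with the difference was -0.22, and across all 15613 genes it was -0.12, both as descriptions over genes that share arrays and base composition.

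KRAB proteins act through co-repressor and heterochromatin factors. Of 36 measured genes of such factors 12 rose (33.3%), 5 fell (13.9%) and 19 did not pass, with a median difference of 0.03, against 17.3% that rose and 18.9% that fell among all genes at or above the cut. Resf1, a factor that silences retroelements, had log2 signals of 9.17, 9.16 and 9.19 with 4EGI-1, against 8.17, 8.20 and 8.09 in untreated cells, and rose by 1.02 ± 0.06 (adjusted p = 5.34e-05). The maintenance DNA methyltransferase gene Dnmt1 rose by 0.90 ± 0.06 and the nucleosome remodeller gene Chd4 by 0.81 ± 0.06. Mta1, another subunit of the Chd4 complex, had 9.11, 9.31 and 9.07 with 4EGI-1, against 9.75, 9.76 and 9.72 in untreated cells and fell by 0.58 ± 0.08, with the groups apart. Gatad2a and Sumo3 fell by 0.26 ± 0.06 and 0.27 ± 0.07; the call of Gatad2a was lost without 4EGI-1 replicate 3 (adjusted p = 0.0546), and that of Sumo3 without 4EGI-1 replicate 1 (0.0549) or 3 (0.0731) or untreated replicate 1 (0.0538) or 3 (0.0748).

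Trim28 and Setdb1, named after their values were seen, are the co-repressor and the histone methyltransferase at the centre of KRAB silencing. Trim28 had 10.03, 9.98 and 9.99 with 4EGI-1, against 10.12, 10.10 and 10.10 in untreated cells. Its treated arrays were slightly lower, by 0.11 ± 0.06, which did not pass (adjusted p = 0.22). Setdb1 had 9.79, 9.62 and 9.70 with 4EGI-1, against 8.86, 9.04 and 9.001 in untreated cells and rose by 0.74 ± 0.08.

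Of 27 zinc finger regulators of lymphocytes 5 rose (18.5%), 3 fell (11.1%) and 19 did not pass, with a median of -0.02. This list was not filtered by signal, and Zbtb7b, Zeb2, Klf2, Egr2, Prdm1 and Mecom lie below the cut. Of all genes tested 11.5% rose and 11.5% fell, and of those at or above the cut 17.3% rose and 18.9% fell. The share of the list that rose was near that of the latter, which differ from the list in being filtered by signal. Zeb1 rose by 0.56 ± 0.06, Ikzf2 by 0.47 ± 0.07 and the insulator gene Ctcf by 0.26 ± 0.06 (adjusted p = 0.0519 without untreated replicate 3), while Bcl6 fell by 0.39 ± 0.07, Klf3 by 0.34 ± 0.06 and Yy1 by 0.29 ± 0.07 (adjusted p = 0.0508 without 4EGI-1 replicate 2, 0.0549 without untreated replicate 1 and 0.0538 without untreated replicate 2). Of 20 genes with CCCH fingers or in mRNA decay 7 rose (35%), 4 fell (20%) and 9 did not pass, with a median of 0.04. These were not filtered by signal either, and Zc3h12a, Zc3h12c and Zc3h12d lie below the cut. The share that fell was near the 18.9% of genes at or above the cut, against 11.5% of all genes tested. Zc3h6 had 8.96, 8.88 and 8.92 with 4EGI-1, against 7.16, 7.17 and 7.15 in untreated cells, a rise of 1.75 ± 0.06. Zc3h13, a subunit of the complex that methylates adenosine in mRNA, rose by 0.90 ± 0.07 and Zc3h4 by 0.49 ± 0.07, while Rc3h1, which encodes the mRNA decay factor roquin, fell by 0.51 ± 0.06, Zc3h7b by 0.70 ± 0.07 and Zc3h14 by 0.33 ± 0.06.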

How the data were processed

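Polysomal RNA of 3 samples treated with 4EGI-1 and 3 untreated samples was measured on 1 array each. The deposited log2 signals, 1 per probe set and array, come from RMA, per the submitters' processing notes. The sources used here do not give its version or settings. RMA makes arrays alike, so values are relative. No header or label says that replicates were separate cultures beyond the term biological replicate in the design text.

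Of 34760 probe sets the platform annotation lists 22961, of which 21640 have 1 symbol and 1321 several. Symbols were updated by Entrez identifier (21553 probe sets matched) through RefSeq, GRCm38.p6, which changed no member. The brightest probe set per symbol was kept, giving 19937 genes. A further 26 Zfp symbols occur only in shared probe sets and were not tested by name.

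Differences were fitted over all genes without a filter in limma 3.58.1 (R 4.3.3; lmFit, then eBayes), with Benjamini-Hochberg adjustment at 0.05, two-sided; the code was tested on simulated data. The total degrees of freedom of the moderated tests were 8.15, of which 4.15 came from the prior over all genes. Samples were grouped by title.

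Members and lists were chosen with earlier results of these data known. Named were the 10 largest increases and decreases with separate groups, all members of the list of RNA, ribosome and ubiquitin roles, up to 5 by p of the other role lists, 3 genes on each side of the signal cut, up to 5 dimmer genes that passed and, per list of other genes, up to 3 in each direction by p; others in the text were chosen after their values were seen. Pairs by protein identity, also planned, were not analysed here. Alternatives were the replicate block, filters, all probe sets, probe set means, quantile normalization, centring, a trended robust prior, array weights, a stricter threshold, other signal cuts, the annotation's symbols and leaving out each sample.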

Additional observations from a re-analysis of the deposited data

Results flagged for a closer look

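A signal outside the genes tested came from 36 probe sets that the annotation assigns to several genes, at least 1 of them a Zfp gene. In a fit over all 22961 listed probe sets, 14 of these 36 were higher with 4EGI-1 and 6 were lower (limma, adjusted p under 0.05), with a median log2 difference of 0.05. Over all listed probe sets 11.1% were higher and 11.5% lower. Which of the genes gave the signal cannot be told apart.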

How the results depend on the processing

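The 119 members that rose and the 10 that fell were 111 and 7 with the replicate block. The samples share only a number: deviations of same-numbered arrays from their group means correlated at 0.061, 0.107 and -0.021, and replicate 3 did not correlate best with its own number. Leaving out single samples gave 100 to 118 members that rose, 5 to 9 that fell, 107 to 124 in all and a median of 0.21 to 0.25. At an adjusted p under 0.01, 4 members fell. Other signal cuts change which genes are members: with the 75th percentile 63 rose, 4 fell and 67 changed in all, with a median of 0.32, and the median was 0.18 with the 25th percentile and 0.16 with no cut. Under the other alternatives these counts stayed within 1.5 times, and the median moved by less than the SD of 0.040 between arrays. For the 40 named members, 561 of 600 values under alternatives kept direction and side of the threshold, 34 lost the call, 5 gained it and 0 reversed; the calls lost belong to 6 members, and the 10 largest increases lost none. The replicate block was among the settings that ended the calls of Zfp770 (adjusted p = 0.064), Zfp36 (0.0561), Zfp423 (0.0822) and Zfp830 (0.0699), and of Sumo3 (0.0502), which is no member. The cause of these losses was not tested. The number of arrays limits the precision, and near the cut signals are close to those of dim probe sets.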

Other observations

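Families with related fingers were looked at after the data had been seen, among genes at or above the signal cut. Of 17 Zscan and Zkscan genes, whose proteins join C2H2 fingers to a SCAN domain, 11 rose and 0 fell (limma, adjusted p under 0.05), with a median log2 difference of 0.35 and a range of -0.04 to 0.83. All 6 Zmym genes there, whose proteins carry MYM-type fingers, rose, by 0.34 to 0.56. Of 35 Zbtb genes, which pair fingers with a BTB domain, 11 rose and 3 fell, with a median of 0.07. Of 21 Zdhhc genes, which encode palmitoyltransferases, 1 rose and 4 fell, with a median of -0.09. Of 11 Klf genes 1 rose and 2 fell, with a median of -0.05. For comparison, 17.3% of all genes at or above the cut rose and 18.9% fell.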
